A study of Mus musculus with 6 samples.

Results

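The AP-1 and early response genes described here are 10 genes: the Fos family members Fos, Fosb and Fosl2, the Jun family members Jun, Junb and Jund, and the early response genes Ier2, Dusp1, Zfp36 and Ppp1r15a. They were chosen by gene symbol with earlier results of these data known, and all 10 were found once each among the 32285 genes measured. Expression was read in OT-II cells, CD4+ T cells with a transgenic receptor for an ovalbumin peptide, by single-cell RNA sequencing. The mutant cells came from OTII+/+RAG-/- donors heterozygous for an M318R knock-in of Tgfbr1 (labelled TgfbrIWT/mut; libraries mutant 1 and mutant 2), and the WT cells from OTII+/+RAG-/- donors with WT Tgfbr1 (libraries WT 1 and WT 2). Tgfbr1 encodes the type I receptor for TGF-beta, and the allele was modelled on Loeys-Dietz syndrome. All donor cells were transferred into CD45.1 WT hosts that drank 1.5% ovalbumin in water for 7 days, and donor T cells (TCRβ+, CD4+ and CD8-, with CD45.2 and without CD45.1) were sorted from Peyer's patches taken on day 8. The knock-in was present in all cells of the mutant donors while the hosts were WT, and the labels give neither the donors' age nor whether each library was a separate animal. A p-value below thus reflects no more than how far these 4 libraries spread over the genes tested together, and that spread may be technical.

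AP-1 is a dimeric transcription factor built from Fos and Jun family proteins. In T cells it is formed after stimulation through the antigen receptor and binds DNA together with NFAT at many cytokine genes. Early response genes are transcribed soon after a stimulus without new protein synthesis, and their mRNAs are mostly short-lived. Several of them encode brakes on the same response: Dusp1 removes phosphate from MAP kinases, Zfp36 (tristetraprolin) binds AU-rich elements in mRNAs and speeds their decay, and Ppp1r15a (GADD34) guides protein phosphatase 1 to the translation initiation factor eIF2.

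After filtering, 886 and 183 T cells were kept in mutant 1 and mutant 2, against 1285 and 634 in WT 1 and WT 2, with 7885052 and 1709724 against 12093713 and 5735568 UMIs (unique molecular identifiers, 1 per captured mRNA molecule). Median UMIs per kept cell were 8624 and 9029 in the mutant libraries and 8821 and 8615.5 in the WT libraries. A Cd3e UMI was found in 98.4% to 99.7% of the kept cells of each library, so nearly all held a T cell transcript. Library pairs shared 7 to 18 cell barcodes, and 15 kept cells carried a barcode found in more than 1 library. The WT matrices, but not the mutant ones, also hold counts of 3 antibody tags, so the effects of hashtag staining and of genotype cannot be told apart. Counts from the 3′ end cannot show a point change in Tgfbr1, so genotype was not checked from the counts.

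Fos was the member with the largest difference between the genotypes: it fell in the mutant libraries, and so did Ppp1r15a. The other 8 members had log2 differences between -0.74 and -0.084, all below 0, and none passed the test. Jun, Fosb, Ier2 and Zfp36 passed in some other settings, which are given further on. Levels below are CPM (UMIs per 1000000, scaled by TMM) summed over all kept T cells of a library, and differences are log2 fold changes, mutant minus WT, from edgeR's quasi-likelihood test over 10731 genes, with p-values adjusted by Benjamini and Hochberg and a threshold of 0.05. Of all genes tested, 0.587% were called lower and 0.951% higher in the mutant libraries. Among the members, 2 of 10 were called lower and 0 higher, with 6 of 10 under an unadjusted p of 0.05, against 12.6% of all genes tested. Both mutant libraries lay below both WT libraries for 6 of 10 members and for 23.3% of all genes tested. Because the members were chosen with earlier results known, such comparisons with all genes, here and below, are descriptions and cannot test enrichment.

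Fos (ENSMUSG00000021250, chromosome 12, 85473890 to 85477273, plus strand, GRCm38) encodes the founding Fos protein, which binds DNA only as a dimer with a Jun partner. It had 83.8 and 54.5 CPM in mutant 1 and mutant 2, against 269 and 181 CPM in WT 1 and WT 2. The higher mutant library was below the lower WT library, and the means were 69.2 ± 20.7 CPM in mutant cells and 225 ± 62.3 CPM in WT cells (SD, n = 2 each). The log2 difference was -1.65 (SE 0.19, edgeR adjusted p = 0.000224), from 649 and 97 UMIs in the mutant libraries and 3186 and 1033 in the WT libraries. In bulk sums of this kind fewer cells with the transcript and less transcript per cell cannot be told apart. The shares of cells and the UMIs per positive cell are given further on.

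Ppp1r15a (ENSMUSG00000040435, chromosome 7, 45522916 to 45526268, minus strand) had 33.1 and 36.5 CPM in the mutant libraries, against 80.1 and 47.9 CPM in the WT libraries. The groups did not overlap, although WT 2 lay closer to the mutant libraries than to WT 1. The log2 difference was -0.92 (SE 0.21, edgeR adjusted p = 0.0294). The call was lost when any library but WT 2 was left out, with adjusted p = 0.171 without mutant 1, 0.0554 without mutant 2 and 1.00 without WT 1, where the difference was -0.48.

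Of the Jun family, Jun (ENSMUSG00000052684, chromosome 4, 95049034 to 95052222, minus strand) had 136 and 166 CPM in the mutant libraries, against 310.2 and 189 CPM in the WT libraries. WT 2 was only slightly above mutant 2, and the log2 difference of -0.74 (SE 0.19) missed the threshold (edgeR adjusted p = 0.0584). Junb (ENSMUSG00000052837, chromosome 8, 84974484 to 84978718, minus strand), which dampens Jun activity in some settings, had 427 and 282 CPM in the mutant libraries and 514 and 399 CPM in the WT libraries. These groups overlapped, with mutant 1 above WT 2, and the log2 difference was -0.35 (SE 0.18, edgeR adjusted p = 0.443). Jund (ENSMUSG00000071076, chromosome 8, 70698949 to 70700616, plus strand), the Jun member that many cells express without stimulation, had 919.6 and 727 CPM in the mutant libraries and 902 and 853 CPM in the WT libraries. Mutant 1 held the highest Jund level of the 4 libraries, and the log2 difference was -0.088 with a 95% interval of -0.41 to 0.23 (edgeR adjusted p = 0.853).

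The other Fos family members did not pass the test either. Fosb (ENSMUSG00000003545, chromosome 7, 19302696 to 19310051, minus strand) had 36.8 and 23.6 CPM in the mutant libraries and 55.0 and 39.9 CPM in the WT libraries. The groups did not overlap, and the log2 difference was -0.57 (SE 0.20, edgeR adjusted p = 0.192). Fosl2 (ENSMUSG00000029135, chromosome 5, 32135801 to 32157842, plus strand), which encodes Fra-2, had 7.49 and 8.43 CPM in the mutant libraries and 10.6 and 4.92 CPM in the WT libraries. It was the member with the fewest UMIs, at 58 and 15 in the mutant libraries and 125 and 28 in the WT libraries, and its 95% interval of -0.77 to 0.60 around a log2 difference of -0.084 holds smaller changes in either direction, which this depth could not detect.

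The remaining early response genes lay between Fos and Jund. Ier2 (ENSMUSG00000053560, chromosome 8, 84661331 to 84662852, minus strand), a nuclear early response protein, had 128 and 87.1 CPM in the mutant libraries and 177 and 148 CPM in the WT libraries, a log2 difference of -0.56 (SE 0.16, edgeR adjusted p = 0.103). Zfp36 (ENSMUSG00000044786, chromosome 7, 28376784 to 28380253, minus strand) had 127 and 96.1 CPM in the mutant libraries and 176 and 145 CPM in the WT libraries, a log2 difference of -0.50 (SE 0.15, edgeR adjusted p = 0.131). Both were lower in each mutant library than in each WT library without passing the threshold. These sums pool all T cell states, and the smaller differences within 2 of the states are given further on. Dusp1 (ENSMUSG00000024190, chromosome 17, 26505590 to 26562128, minus strand) had 79.5 and 64.1 CPM in the mutant libraries and 115 and 67.9 CPM in the WT libraries. Mutant 1 lay above WT 2 for Dusp1, and the log2 difference was -0.33 (SE 0.19, edgeR adjusted p = 0.510).

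**Figure D1:**
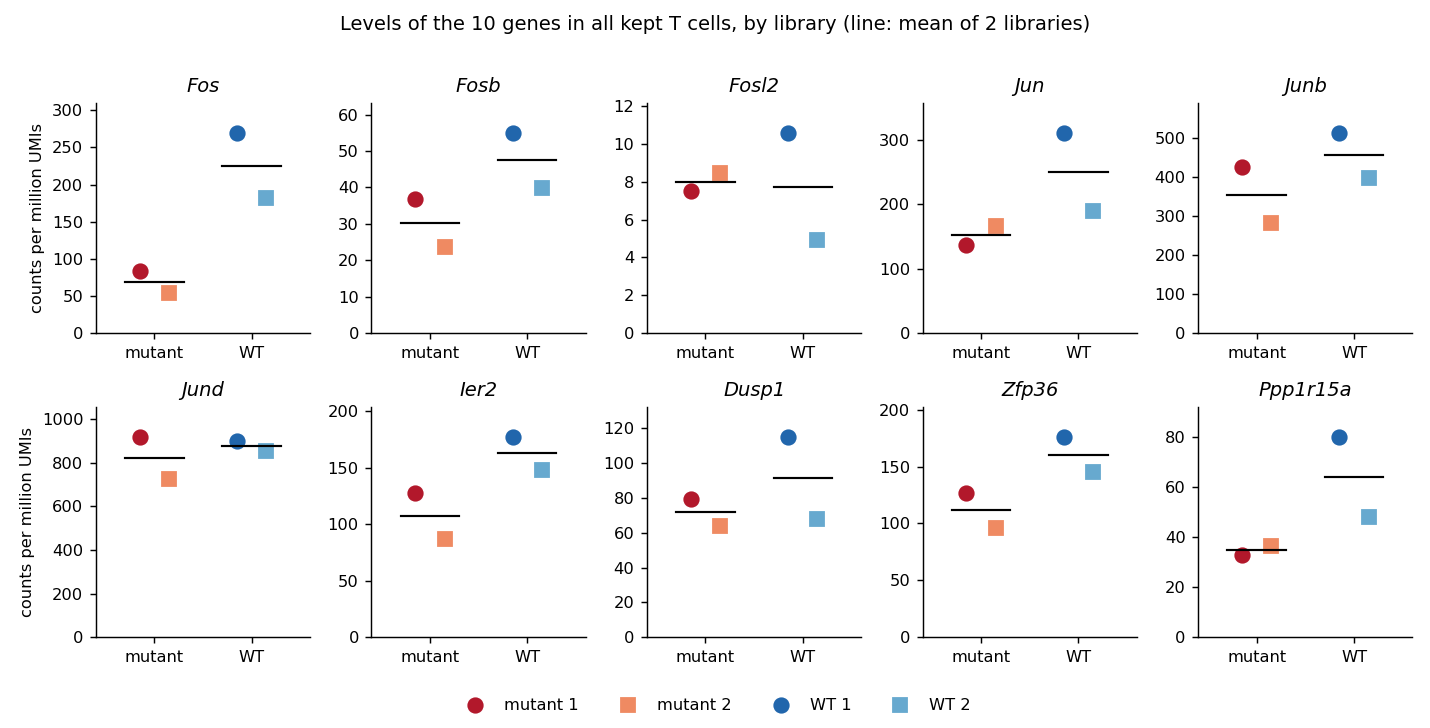
Level of each of the 10 genes in all kept T cells, in TMM-scaled counts per 1000000 UMIs, each panel with its own axis from 0. Each point is 1 library (mutant left, WT right) and each line the mean of 2 libraries; Fos is at 83.8 and 54.5 in the mutant libraries and at 269 and 181 in the WT libraries, while the Jund points of the genotypes overlap.

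The Fos call held with each library left out in turn, with log2 differences from -2.06 to -1.34. It was lost when the 89 cells of B-like and epithelial-like clusters were kept in (-1.51, edgeR adjusted p = 0.273). It was also lost in limma fits that gave each cell equal weight (-1.67, adjusted p = 0.0881) or each T cell state the same share in every library (-1.54, adjusted p = 0.0734), with fold changes close to the -1.65 of the summed counts. A limma fit of the ordinary sums, added after the data had been seen, kept the call (-1.64, adjusted p = 0.0118). With all genes with a UMI tested, the difference was -1.66 and the edgeR adjusted p was 1.5e-22. The size of the p-value thus depended strongly on which genes were tested together. The state mix differed between the libraries: Tfh-like cells made up 43.2% and 31.7% of the mutant libraries and 14.6% and 28.4% of the WT libraries, and naive or memory-like cells 7.11% and 12.6% of the mutant libraries and 29.1% and 17.4% of the WT libraries. Of 8 B cell markers the summed level in kept cells was 299.8 and 354 CPM in the mutant libraries and 171 and 235 CPM in the WT libraries, with 2 markers higher and 4 lower in both mutant libraries. Of 12 epithelial markers it was 22.8 and 21.6 CPM in the mutant libraries and 10.1 and 14.6 CPM in the WT libraries, with 4 markers higher in both mutant libraries and Cdh1 at 0 throughout. Of 6 plasma cell markers it was 69.8 and 49.7 CPM in the mutant libraries and 366 and 63.8 CPM in WT 1 and WT 2. Among these 6, 0 were higher and 2 lower in both mutant libraries. The part of these genes' cells in the differences was not tested.

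Sequences around the transcription start are shown for Fos and Ppp1r15a, the 2 members that passed the test, because both hold the core of the cAMP response element, TGACG. That element is bound by CREB and ATF proteins. The windows run from 250 bases before to 50 bases after the RefSeq start (GRCm38.p6), 5′ to 3′ on the gene's strand, at chr12:85473640-85473939 (plus) for Fos and chr7:45526219-45526518 (minus) for Ppp1r15a. Capitals mark TGACG or its reverse complement CGTCA, joined as TGACGTCA where the strands' matches overlap.
Fos: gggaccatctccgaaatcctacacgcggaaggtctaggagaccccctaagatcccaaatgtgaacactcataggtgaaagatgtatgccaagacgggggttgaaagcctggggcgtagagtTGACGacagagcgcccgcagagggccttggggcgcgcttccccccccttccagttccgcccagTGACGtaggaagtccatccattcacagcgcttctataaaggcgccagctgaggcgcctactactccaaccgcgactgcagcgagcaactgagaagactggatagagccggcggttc
Ppp1r15a: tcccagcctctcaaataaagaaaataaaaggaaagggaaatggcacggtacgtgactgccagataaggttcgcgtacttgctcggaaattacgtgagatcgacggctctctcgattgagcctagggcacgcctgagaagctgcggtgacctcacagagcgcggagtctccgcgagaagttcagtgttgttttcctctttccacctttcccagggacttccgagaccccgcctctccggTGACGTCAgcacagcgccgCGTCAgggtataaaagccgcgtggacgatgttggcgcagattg

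The Fos matches began 129 and 66 bases before the start, and the TGACGTCA of Ppp1r15a began 12 bases before it. Windows were found for 9 of the 10 members, and that of Ier2 was not used here. The search covered both strands. TGACG was found in 5 of these 9 windows (Fos, Fosb, Junb, Dusp1 and Ppp1r15a), against 20.8% of 32851 windows of the same length over all genes. The full TGACGTCA was found in 2 of 9 (Dusp1 and Ppp1r15a), against 1.79%, the GC box GGGCGG in 6 of 9, against 35.7%, and the CArG box of serum response factor in 1 of 9 (Zfp36), against 1.63%. The AP-1 site TGANTCA was found in 0 of 9 windows, against 7.81%. The windows over all genes include genes too low to be tested here. Their shares are therefore not a matched baseline, and no excess can be read from them. Bases outside the windows were not searched, so a window without a match does not show that the gene lacks the element. The RefSeq start used for Jund lies upstream of the gene start given above, so its window is another stretch. A match of letters is a description, not a binding site. The stretches around the match in the other 3 members, all of which missed the threshold, read as follows, with TGACG in capitals, and the Dusp1 match there is part of its TGACGTCA.
Fosb: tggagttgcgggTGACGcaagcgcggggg
Junb: gcttcctgacagTGACGcgagccgcctcc
Dusp1: cggtagggcgggTGACGtcaccgcccggt

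AU-rich elements in the 3′ UTR mark many short-lived mRNAs and are the target of the protein that Zfp36 encodes. The nonamer TTATTTATT was found in the annotated 3′ UTR of 5 of 10 members, against 8.28% of 9919 tested genes with a 3′ UTR, a search chosen after the counts had been seen. Both members that fell hold it, as do 3 of the 8 that did not pass the test. A site of each is shown, on the mRNA's strand with T for U and the nonamer in capitals; the repeat in Ppp1r15a holds 4 overlapping matches.
Fos: tgttttcaatTTATTTATTaagatggatt
Ppp1r15a: tagtttcctaTTATTTATTtatttattta
Zfp36: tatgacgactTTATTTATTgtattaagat
Dusp1: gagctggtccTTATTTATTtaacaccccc
Fosl2: atttattttaTTATTTATTttaaatgttt

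Each member's level was also divided by that of Fos in the same library. Fos had the largest fall, so a higher ratio in the mutant libraries was set by the choice of Fos as the divisor, and the ratios are given as a description with no test. The log2 ratio of Ppp1r15a to Fos was -1.34 and -0.58 in the mutant libraries, against -1.75 and -1.92 in the WT libraries, a mean difference of 0.88. Jun to Fos was 0.70 and 1.61 in the mutant libraries and 0.20 and 0.060 in the WT libraries, a difference of 1.02, and Fosb to Fos was -1.19 and -1.21 in the mutant libraries and -2.29 and -2.19 in the WT libraries, a difference of 1.04. Ppp1r15a had the smallest mean difference of the 9 members, but which member lay nearest to Fos rested on mutant 1: without it the log2 difference was -2.06 for Fos, -1.03 for Fosb, -0.91 for Ier2 and -0.84 for Ppp1r15a. Jund to Fos was 3.46 and 3.74 in the mutant libraries and 1.74 and 2.23 in the WT libraries, a difference of 1.61, and Fosl2 had the largest, 1.85.

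Per cell, Fos was detected in fewer mutant cells. A Fos UMI was present in 33.1% and 25.1% of kept T cells of mutant 1 and mutant 2, against 56.4% and 44.2% in WT 1 and WT 2. With every cell thinned to 3000 UMIs, which left out 34 and 22 shallower mutant cells and 16 and 20 WT cells, the shares were 17.6% (exact 95% interval 15.1% to 20.3%) and 10.6% (6.3% to 16.4%) in the mutant libraries, against 38.5% (35.8% to 41.3%) and 27.7% (24.2% to 31.4%) in the WT libraries. The intervals cover counting error only, and neither mutant interval reached a WT interval. Thinned cells with a Fos UMI held a mean of 1.45 and 1.53 Fos UMIs in the mutant libraries, against 2.31 and 2.12 in the WT libraries. Ppp1r15a was present in 8.10% and 6.83% of thinned mutant cells and in 17.9% and 12.1% of thinned WT cells. Jun was present in 25.1% and 29.8% of thinned mutant cells and in 41.7% and 27.9% of thinned WT cells, so mutant 2 lay above WT 2. Jund was present in 87.7% and 80.7% of thinned mutant cells and in 87.2% and 85.0% of thinned WT cells. No cell type here should lack these transcripts: 27.0% of the 89 B-like and epithelial-like cells held a Fos UMI, at a median of 3931 UMIs per cell. As a measure of free RNA, the B cell gene Cd79a was found in 0% to 0.473% and the epithelial gene Lgals4 in 2.18% to 3.63% of the kept T cells of a library.

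**Figure D2:**
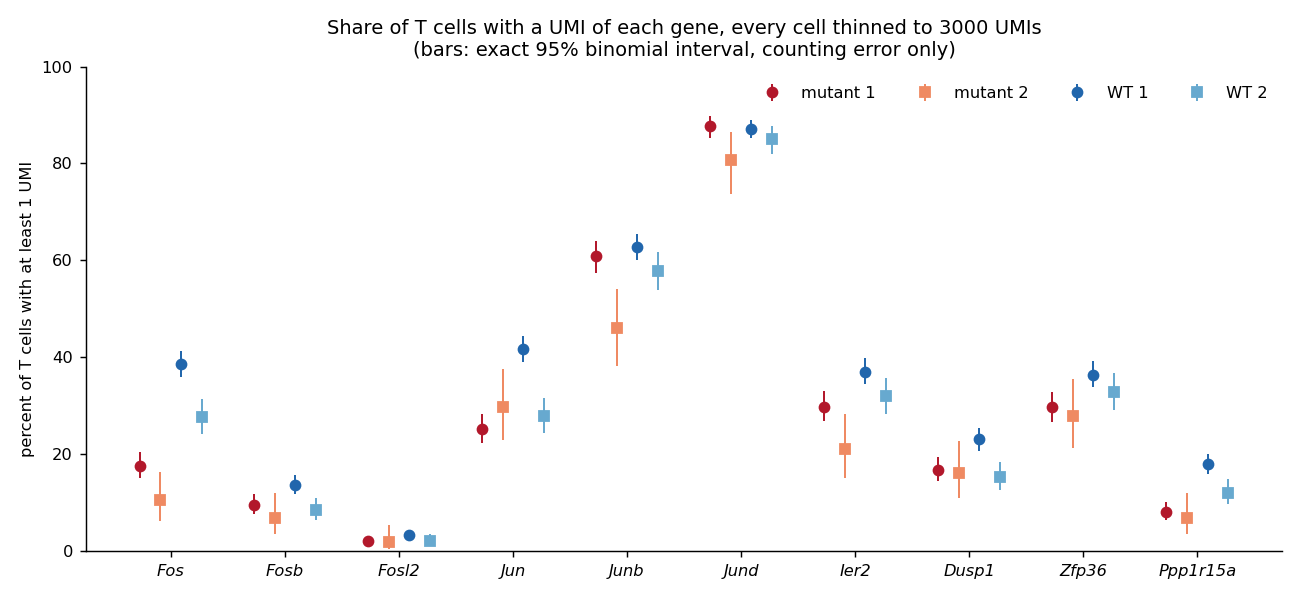
Percent of kept T cells with at least 1 UMI of each gene after every cell was thinned to 3000 UMIs, with exact 95% binomial intervals, for mutant 1, mutant 2, WT 1 and WT 2 from left to right. For Fos the mutant libraries are at 17.6% and 10.6% and the WT libraries at 38.5% and 27.7%, and for Jun, Dusp1 and others the libraries of the genotypes interleave.

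Within a library, several members were found in the same cells as Fos. Among thinned cells, Jun was present in 46.0% of Fos-positive and 20.7% of Fos-negative cells of mutant 1, in 64.7% and 25.7% of mutant 2, in 63.8% and 27.8% of WT 1 and in 44.1% and 21.6% of WT 2. Dusp1 showed the same order in all 4 libraries, with 27.3% of Fos-positive and 14.5% of Fos-negative cells in mutant 1 and 37.2% and 14.1% in WT 1. Ier2 was nearly as frequent in Fos-negative cells in 2 libraries, with 32.0% of Fos-positive and 29.3% of Fos-negative cells in mutant 1 and 32.4% and 31.8% in WT 2. Ppp1r15a was present in 16.0% of Fos-positive and 6.41% of Fos-negative cells of mutant 1, in 5.88% and 6.94% of mutant 2, in 28.8% and 11.03% of WT 1 and in 19.4% and 9.23% of WT 2, so mutant 2 had the opposite order. Only 17 thinned cells of mutant 2 were Fos-positive, so its shares among them, for Jun also, are too imprecise to set an order. Spearman's rho with Fos over cells ranged from 0.24 to 0.40 for Jun, from 0.15 to 0.25 for Fosb, from -0.016 to 0.24 for Ppp1r15a, from 0.0059 to 0.16 for Ier2 and from 0.0012 to 0.098 for Fosl2 across the libraries. Cells of a library share its depth and handling, and these values are descriptions of sparse counts.

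The kept T cells were grouped into states without using the members or the other AP-1, early response and heat shock genes. Tfh-like cells (808, with the T follicular helper markers Pdcd1, Cxcr5 and Bcl6 among their leading genes), cluster 0 (675, led by Gpr183, Slc29a1 and Id2) and naive or memory-like cells (570, with Klf2, Ccr7, Satb1 and S1pr1) had at least 20 cells in every library and were tested. In Tfh-like cells Fos had 74.7 and 57.9 CPM in the mutant libraries, against 179 and 174 CPM in the WT libraries, and fell (log2 difference -1.34, SE 0.15, edgeR adjusted p = 0.00107). In cluster 0 it had 109 and 49.8 CPM in the mutant libraries, against 333 and 206 CPM in the WT libraries, and fell (log2 difference -1.58, SE 0.22, edgeR adjusted p = 0.00182). In naive or memory-like cells it had 128 and 77.3 CPM in the mutant libraries, against 312 and 197 CPM in the WT libraries. Those groups did not overlap either, but the log2 difference of -1.25 (SE 0.26) did not pass (edgeR adjusted p = 0.110), with 59 and 16 Fos UMIs behind the mutant values. Fos passed in naive or memory-like cells in 6 of 8 other settings, among them without mutant 1, mutant 2 or WT 2 in turn (edgeR adjusted p from 1.31e-06 to 0.000772), but not without WT 1 (-0.85, adjusted p = 0.507) or with library size alone (adjusted p = 0.0560). In Tfh-like cells the call was lost without WT 1 (adjusted p = 0.0885). In cluster 0 it held with each library left out, from -2.46 without mutant 1 to -1.20 without WT 1.

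Fos was the only member called in Tfh-like cells and in cluster 0, and no member was called in naive or memory-like cells, where 6 of 9 tested members had an unadjusted p under 0.05, against 8.39% of all genes tested there. Called lower in the mutant libraries were 0.0668% of all genes tested in Tfh-like cells, 0.0354% in cluster 0 and 0.0739% in naive or memory-like cells. Both mutant libraries lay below both WT libraries for 7 of 10 members in Tfh-like cells, against 17.9% of all genes, for 3 of 10 in cluster 0, against 18.5%, and for 6 of 9 in naive or memory-like cells, against 21.2%. Ppp1r15a had 39.3 and 43.1 CPM in mutant cells of cluster 0 and 89.5 and 59.9 CPM in WT cells, a log2 difference of -0.92 (SE 0.23, edgeR adjusted p = 0.136). Its difference was -0.56 in Tfh-like cells and -1.20 in naive or memory-like cells. Jun differed by -0.51, -0.54 and -0.67 in Tfh-like cells, cluster 0 and naive or memory-like cells, with overlapping groups in the last 2. In the same order Ier2 differed by -0.082, -0.10 and -0.59, with overlapping groups in Tfh-like cells and cluster 0. Zfp36 differed by -0.42, -0.17 and -0.55, with overlapping groups in cluster 0. In all kept T cells Ier2 and Zfp36 had differed by -0.56 and -0.50. Dusp1 had 43.3 and 9.66 CPM in naive or memory-like mutant cells and 98.9 and 46.6 CPM in WT cells, where 20 and 2 UMIs lay behind the mutant values (log2 difference -1.31, SE 0.46, edgeR adjusted p = 0.494). Jund stayed within -0.12 to -0.33 in the 3 states, and Fosl2 was too low to be tested in naive or memory-like cells.

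The genotype effect was also compared between Tfh-like cells and cluster 0, the 2 most abundant states, as an interaction with the library as a block. The effect on Fos differed by 0.19 (SE 0.19, 95% interval -0.19 to 0.56, edgeR adjusted p = 1.00), so no difference between the states was detectable. Junb had the largest difference for its error, 0.38 (SE 0.14): its log2 difference was -0.049 in Tfh-like cells and -0.44 in cluster 0, and the interaction did not pass (edgeR adjusted p = 0.537). None of the 10 members was called, against 0.0539% of all genes in either direction, and 1 had an unadjusted p under 0.05, against 4.95% of all genes.

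**Figure D3:**
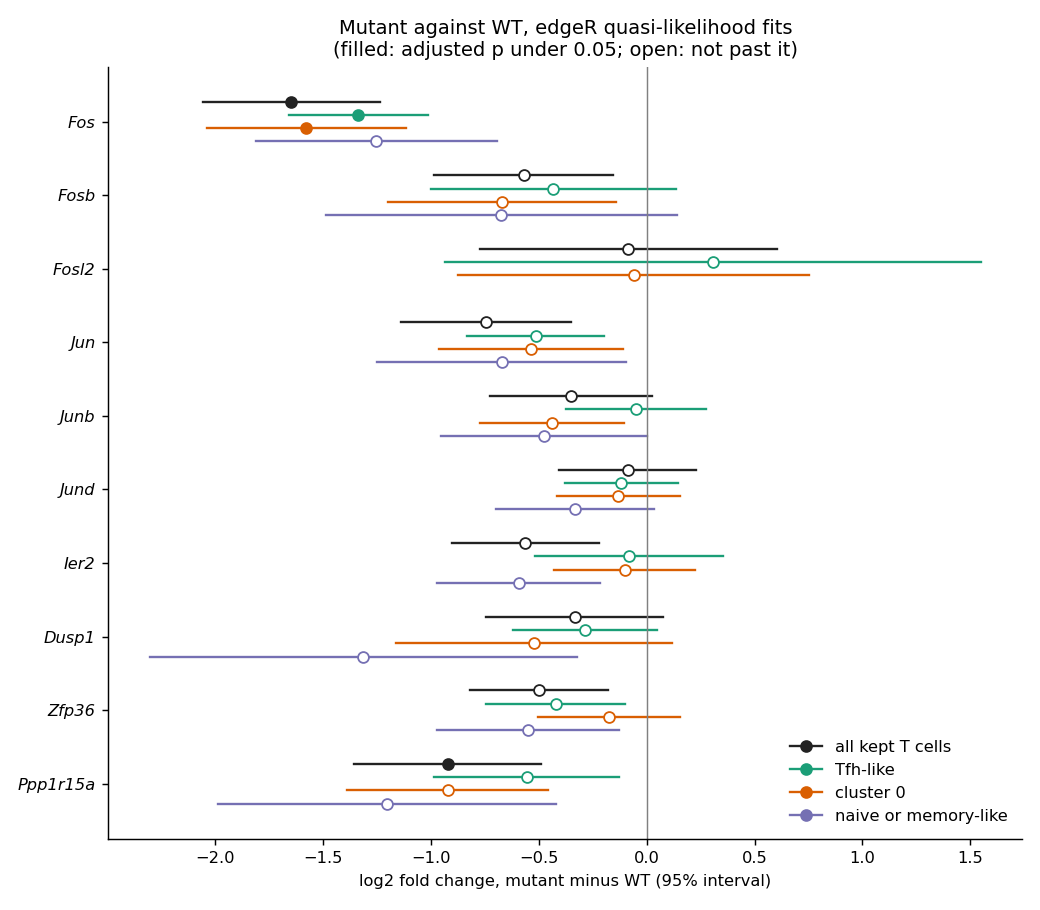
Log2 fold changes, mutant minus WT, with 95% intervals, for the 10 genes in all kept T cells and in the 3 tested states; filled points passed an adjusted p of 0.05 and open points did not. Fos is filled in all kept T cells (-1.65), Tfh-like cells (-1.34) and cluster 0 (-1.58), and Ppp1r15a in all kept T cells alone (-0.92).

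Across states, members differed in where they were highest. The values here are CPM without TMM scaling, in states with at least 20 cells in the library, and cells of a library share its handling. In WT 1 Fos was highest in cluster 6 (led by Eomes, Slamf7 and Nkg7) at 473 CPM, followed by Treg-like cells at 448, cluster 0 at 339, naive or memory-like cells at 307, Tfh-like cells at 181, cluster 5 at 173, cluster 4 at 158 and interferon signature-like cells at 154. In WT 2 the 6 states with enough cells had the same order, at 264 CPM in cluster 6, 205 in cluster 0, 191 in naive or memory-like cells, 174 in Tfh-like cells, 151 in cluster 5 and 114 in cluster 4. For these 6 states the ranges of the 2 WT libraries overlapped between neighbours in the order, except between naive or memory-like and Tfh-like cells and between Tfh-like cells and cluster 5. In mutant 1 Fos ran from 48.1 CPM in cluster 7 to 127 in cluster 4, where the WT libraries had 158 and 114 CPM, so in cluster 4 (led by Nme2, Eif5a and Hspe1) mutant 1 lay between the WT libraries. In mutant 2 it ran from 26.4 CPM in cluster 7 to 76.7 in naive or memory-like cells. Cluster 7 had a median of 3509 UMIs per cell and was led by Malat1, and it made up 5.53% and 12.6% of the mutant libraries and 0.778% and 2.84% of the WT libraries.

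Jund was highest in Tfh-like cells in each of the 4 libraries, with 1122 and 1083 CPM in mutant 1 and mutant 2 and 1269 and 1196 CPM in WT 1 and WT 2. Ier2 had its lowest level there in each of the 4 libraries, with 89.9 and 49.2 CPM in the mutant libraries and 95.5 and 75.8 CPM in the WT libraries. Zfp36 was highest in cluster 0 in each of the 4 libraries, with 214 and 157 CPM in the mutant libraries and 244 and 207 CPM in the WT libraries. These placements were the same in both genotypes, unlike the level of Fos. Treg-like cells, with 60 cells in WT 1 and under 20 in every other library, held the highest Jun, Junb, Dusp1 and Ppp1r15a levels of WT 1, at 708, 812, 248 and 175 CPM.

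**Figure D4:**
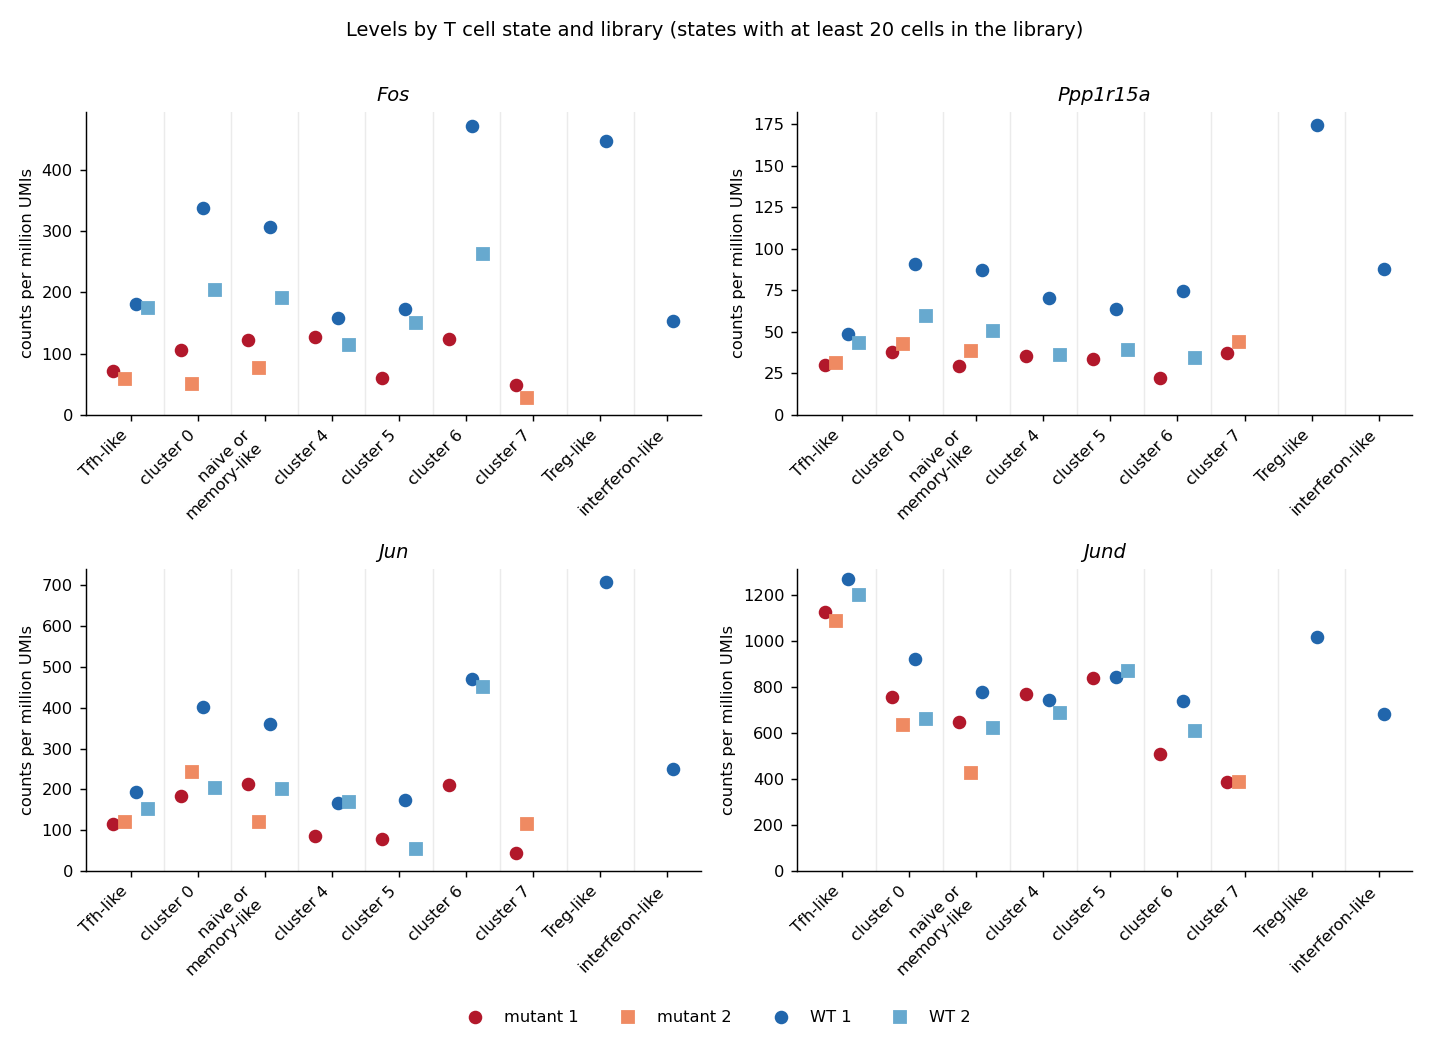
Level of Fos, Ppp1r15a, Jun and Jund, in counts per 1000000 UMIs without TMM scaling, by T cell state and library (mutant 1, mutant 2, WT 1 and WT 2 from left to right within a state; a point is missing where the library had under 20 cells of the state). Fos in Tfh-like cells is at 71.4 and 58.2 in the mutant libraries and 181 and 174 in the WT libraries, and Jund is highest in Tfh-like cells in all 4 libraries.

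The WT libraries could be split by their antibody tags (301, 302 and 303), which the labels do not explain, a split made after the counts had been seen. A tag was assigned to 909 of 1285 WT 1 cells and 432 of 634 WT 2 cells. Fos had 187, 195 and 423 CPM in the WT 1 cells of tags 301, 302 and 303, and 85.6, 249 and 205 CPM in those of WT 2, against 82.3 and 56.7 CPM in mutant 1 and mutant 2, all without TMM scaling. Over all cells of a tag, all 6 tag groups lay above both mutant libraries. Tag 301 of WT 2 (107 cells, exact 95% Poisson interval 68.9 to 105.1 CPM, counting error only) was not distinguishable from mutant 1, however. In its 42 Tfh-like cells Fos had 65.1 CPM, between mutant 1 (71.4) and mutant 2 (58.2). In its 21 cells of cluster 0 Fos also lay between mutant 1 (105) and mutant 2 (49.4). In both states the other tag groups lay above both mutant libraries. Over all cells of a tag, the highest Fos level was 4.94 times the lowest, beside a 3.13-fold difference between the genotypes (WT over mutant, from the fit). Jun was lower in tag 301 of WT 2 than in both mutant libraries, at 79.0 CPM against 134 and 173 CPM, and so was Ppp1r15a at 30.1 CPM, against 32.5 and 38.0 CPM. Tag 301 of WT 2 also had the lowest level of the heat shock gene Hspa1a, at 9.40 CPM, where the other tag groups had 125 to 244 CPM. Without tag 301 of WT 2 the Fos difference was -1.72, and without tag 303 of WT 1, which held the highest levels, it was -1.51. Ppp1r15a lost its call without tag 303 of WT 1 (edgeR adjusted p = 0.0597), and also without tag 302 of WT 1 (0.0719) or tag 302 of WT 2 (0.0754), which were not the highest groups.

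**Figure D5:**
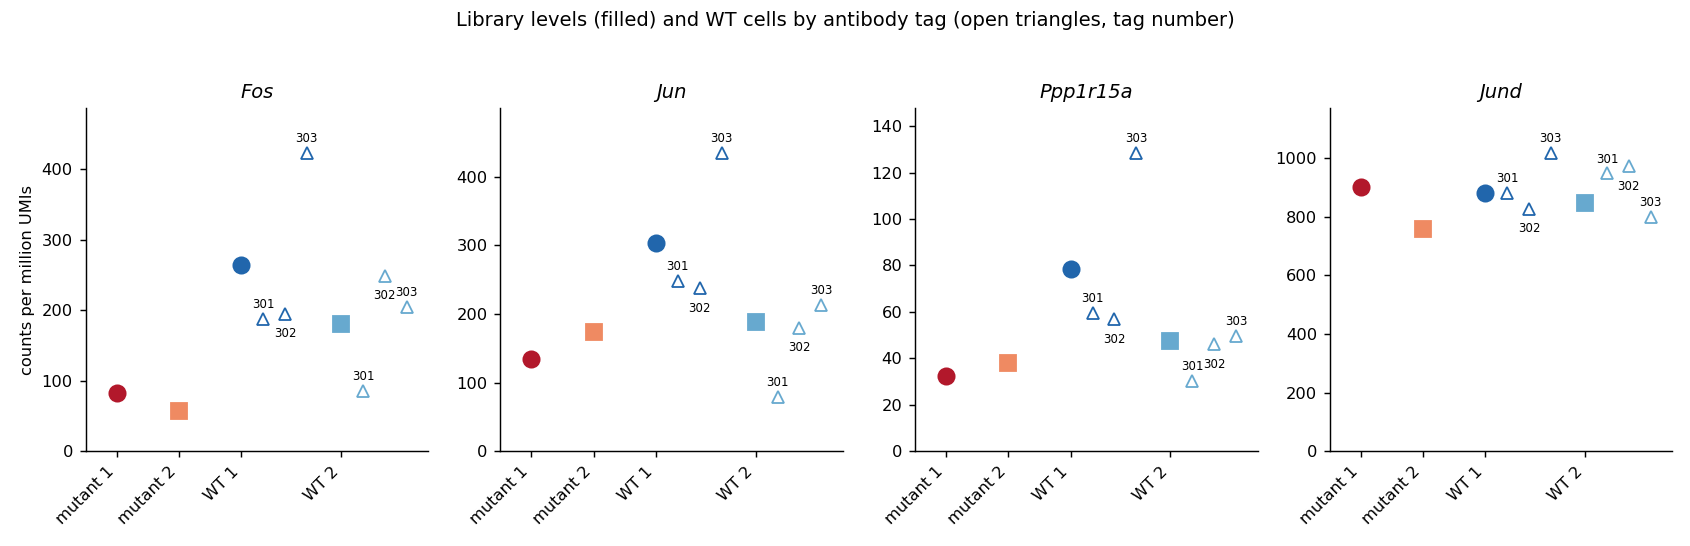
Level of Fos, Jun, Ppp1r15a and Jund, in counts per 1000000 UMIs without TMM scaling, in each library (filled; mutant left, WT right) and in the WT cells of each antibody tag (open triangles with the tag number). For Fos the tag groups run from 85.6 to 423, with tag 301 of WT 2 next to mutant 1 at 82.3, and for Jund all points lie close together.

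Other genes of the same pathways were read from lists. Of 18 other tested AP-1 family genes 0 rose and 0 fell (edgeR; 3 with an unadjusted p under 0.05), and 3 were below 0, with a median log2 difference of 0.19, where 50.9% of all genes were below 0 and their median was -0.0065. Of 39 other early response genes 2 fell and 0 rose, 16 had an unadjusted p under 0.05 and 23 were below 0, with a median of -0.077. Nr4a1, an orphan nuclear receptor induced by antigen receptor signalling, had 42.1 and 33.7 CPM in the mutant libraries and 89.7 and 59.0 CPM in the WT libraries (log2 difference -0.94, SE 0.19, edgeR adjusted p = 0.0174). Klf2, which maintains T cell quiescence and homing, had 34.9 and 83.2 CPM in the mutant libraries and 151 and 93.4 CPM in the WT libraries (-1.23, SE 0.28, edgeR adjusted p = 0.0326), and it is also a marker of the naive or memory-like cells, whose share differed. Within Tfh-like cells 0 of 33 other early response genes were called (edgeR), 10 were below 0 and the median was 0.12. Within cluster 0 it was 0 of 34, with 20 below 0 and a median of -0.021. Within naive or memory-like cells it was 0 of 28, with 18 below 0 and a median of -0.17. Over all kept T cells, of 32 MAP kinase and SRF pathway genes 0 rose and 0 fell (3 with an unadjusted p under 0.05), with a median of 0.054. Of 11 integrated stress response genes, the pathway that Ppp1r15a switches off, 0 rose and 0 fell (2 with an unadjusted p under 0.05), with a median of -0.13.

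Of 14 tested heat shock and chaperone genes 2 fell and 0 rose in all kept T cells (edgeR; 5 with an unadjusted p under 0.05). All 14 were below 0, with a median of -0.29. Hspa1a, an inducible Hsp70 whose reads can be shared with its near-identical copy Hspa1b, had 36.9 and 84.9 CPM in the mutant libraries and 197 and 116 CPM in the WT libraries (log2 difference -1.52, SE 0.28, edgeR adjusted p = 0.00794). Dnajb4, a co-chaperone of Hsp70, had 6.20 and 6.75 CPM in the mutant libraries and 17.5 and 14.2 CPM in the WT libraries (-1.34, SE 0.24, edgeR adjusted p = 0.00794). In naive or memory-like cells Hspa1b (-1.88) and Hspa1a (-1.57) fell, with edgeR adjusted p = 0.0213 and 0.00923. Fos was lower there too (-1.25) without passing. Of the 13 heat shock and chaperone genes tested there, 7 had an unadjusted p under 0.05 (edgeR), against 8.39% of all genes tested. Of these 13, 12 were below 0, with a median of -0.36. In Tfh-like cells, where Fos was called, 0 of 13 heat shock and chaperone genes were called (edgeR), 2 had an unadjusted p under 0.05, against 6.87% of all genes tested, and 8 were below 0, with a median of -0.055. In cluster 0, where Fos was also called, 0 of 14 were called (edgeR), 6 had an unadjusted p under 0.05, against 6.7% of all genes tested, and 7 were below 0, with a median of -0.065. What part handling or stress of the cells has in the level of Fos was not tested.

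Over the 12 combinations of 4 libraries and 3 states, the genes whose log2 CPM followed Fos most closely among 6705 were Lat (Pearson's r 0.94), an adaptor of the T cell receptor, Abracl (0.90), Gabarapl2 (0.87), which acts in autophagy, Ripk3 (0.84), a kinase of necroptosis, Cnppd1 (0.83) and Scp2 (0.83), a sterol carrier. Their log2 differences between the genotypes in all kept T cells lay between -0.62 and -0.22. Of the members, Ppp1r15a was nearest with r = 0.81, followed by Fosb at 0.76, Junb at 0.71, Jun at 0.68, Zfp36 at 0.64 and Ier2 at 0.54. Dusp1 at 0.32 and Jund at 0.12 followed Fos least. The 12 points share their libraries and the genotype difference itself, so r is a description.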

How the data were processed

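Single-cell 3′ gene expression was deposited as UMI counts per gene and cell for 4 libraries. The authors made these counts with Cell Ranger 6.0.0 on mm10 and used Seurat 4, per the submitters' processing notes, and the deposited counts are not normalized. Barcodes passed with 500 or more genes detected and a mitochondrial share of UMIs up to 10% (3108 of 4803). Scrublet in scanpy 1.11.5 removed 31 doublets, and B-like (64 cells) and epithelial-like (25 cells) clusters were left out, giving 2988 T cells. States came from Leiden clustering (leidenalg 0.10.2; 30 principal components, 15 neighbours, resolution 0.8, seed 0) of T cells without the members, other AP-1, early response and heat shock genes, and without T cell receptor, immunoglobulin, mitochondrial, ribosomal, predicted and sex-linked genes. A cluster was named when at least 3 markers were among its 50 leading genes with a 2-fold enrichment.

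UMI sums per library and state went through filterByExpr and TMM scaling, then through edgeR 4.0.16 (quasi-likelihood test, Benjamini-Hochberg adjustment, threshold 0.05; fold changes at a prior count of 0.125) in R 4.3.3. Other fits used DESeq2 1.42.0 and limma 3.58.1. Library totals ran from 1709724 to 12093713 UMIs, which sets the precision, and a gene with 15 UMIs in a library, such as Fosl2 in mutant 2, is imprecise. On simulated counts the fit recovered 75% of 2-fold and 100% of 4-fold changes in all kept T cells, with 5 false calls. For 2-fold changes it recovered 67.3% in Tfh-like cells, 57.1% in cluster 0 and 41.8% in naive or memory-like cells. False calls there were 9, 4 and 8. A member that did not pass is thus not shown to be unchanged. Same-numbered libraries did not deviate together (correlation 0.0081 over 10731 genes), and the labels give no shared batch or date. Sequences are from RefSeq (GRCm38.p6) for promoters and from the GENCODE GRCm38 annotation for 3′ UTRs and gene positions.

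The members and gene lists were chosen with earlier results of these data known. All 10 members are named, and of each list up to 4 genes past the threshold with the largest change. The removal of B-like as well as epithelial-like clusters, the exclusion of sex-linked genes, the naming details, the tag split (at least 10 tag counts and 3 times the next tag), the AU-rich search and the limma fit of ordinary sums were set after the counts had been seen. The level of 1 B cell marker is not reported here.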

Additional observations from a re-analysis of the deposited data

Results flagged for a closer look

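Antibody tag counts, which lie outside the gene expression measurement, were present in the WT matrices alone: 37707 counts over all barcodes of WT 1 and 20474 over those of WT 2. The mutant matrices list no tags. The labels do not say what tags 301, 302 and 303 mark, so whether they separate animals was not tested.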

How the results depend on the processing

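In all kept T cells Fos was lower in mutant cells under all 25 other settings (log2 -2.06 to -1.34) and past the threshold in 22. The 3 that lost its call also left 0 genes and 0 members called: B-like and epithelial-like clusters kept in (Fos -1.51; 958 genes with an unadjusted p under 0.05, edgeR), each cell given equal weight (-1.67; 1254, limma) and equal state shares (-1.54; 858, limma), where edgeR called 165 genes in the chosen setting and DESeq2 called 51. Ppp1r15a lost its call in 14 of 25. Some members not called in the chosen setting passed in others that kept all 4 libraries. Jun passed with all genes with a UMI (edgeR adjusted p = 0.00012) and with the replicate number as a block (0.00044). It also passed with mitochondrial shares of up to 20%, with libraries thinned to 1 total and without tag 301 of WT 2. Fosb, Ier2 and Zfp36 passed with all genes with a UMI and with the block. Called genes and members were 82 and 1 with library size alone, 419 and 6 with all genes with a UMI, 51 and 1 with DESeq2, 20 and 1 with limma on ordinary sums, 75 and 1 with doublets kept in, 88 and 1 without tag 302 of WT 1, 259 and 3 without tag 301 of WT 2, and 85 and 1 without tag 302 of WT 2. Members fell to 1 with mitochondrial shares of at most 5% and without tag 303 of WT 1. Leaving out 1 library gave 44 to 265 genes and 1 to 4 members in all kept T cells, 0 to 190 genes, 0 to 2 members and Fos from -1.62 to -1.24 in Tfh-like cells, 3 to 71 genes and 1 to 4 members in cluster 0, 8 to 109 genes, 0 to 5 members and Fos from -1.77 to -0.85 in naive or memory-like cells, and 1 to 13 genes in the interaction. The 0 in Tfh-like cells came without WT 1 (edgeR, 290 genes with an unadjusted p under 0.05).

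The fit with the replicate number as a block, although the numbers are not shown to pair the libraries, called 395 genes and 6 members in all kept T cells, 5 genes in Tfh-like cells, 41 genes and 3 members in cluster 0, and 37 genes and 3 members in naive or memory-like cells, where Fos passed (-1.30). All genes with a UMI gave 67 genes in Tfh-like cells, 25 genes and 2 members in cluster 0, and 45 genes and 4 members in naive or memory-like cells (Fos -1.30, past the threshold). Resolution 0.4 gave 17 genes in Tfh-like cells and 17 genes and 1 member in naive or memory-like cells (Fos -1.23, past the threshold). With early genes kept in the clustering, Tfh-like cells gave 33 genes and cluster 0 gave 1; naive or memory-like cells were then too few in a library for a fit.

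Thinning each cell to 3000 UMIs moved the share with a Fos UMI to 17.6% and 10.6% in the mutant libraries and 38.5% and 27.7% in the WT libraries. Values that changed sign were all of uncalled members. Fosl2 in all kept T cells was 0.029 with doublets kept in, 0.13 with B-like and epithelial-like clusters kept in, 0.35 with libraries thinned to 1 total, 0.12 with limma on ordinary sums, 0.0096 with equal cell weight and 0.15 with equal state shares. It was -0.044 in Tfh-like cells and 0.13 in cluster 0 with early genes kept in the clustering, and 0.024 in cluster 0 at resolution 0.4. The Jund interaction was 0.0075 with all genes with a UMI. With 1 library left out, ranges that crossed 0 were, in all kept T cells, Fosl2 -0.44 to 0.66, Jund -0.28 to 0.066 and Dusp1 -0.65 to 0.11; in Tfh-like cells, Fosl2 -0.20 to 1.32, Junb -0.38 to 0.15 and Ier2 -0.81 to 0.14; in cluster 0, Fosl2 -0.33 to 0.47, Jun -0.91 to 0.050, Jund -0.34 to 0.11, Ier2 -0.39 to 0.023 and Dusp1 -1.08 to 0.67. In the interaction they were Fos -0.15 to 0.83, Fosb -0.69 to 0.68, Jun -0.34 to 0.28, Jund -0.18 to 0.20, Ier2 -0.43 to 0.14 and Dusp1 -0.76 to 0.64. Why these settings moved the calls was not tested, and a lone library left in a group was assumed to vary like the others.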

Other observations

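Fos UMIs were concentrated in few cells. The top 5% of kept T cells held 37.9% and 47.4% of the Fos UMIs of mutant 1 and mutant 2, against 31.4% and 35.9% in WT 1 and WT 2. The cell with most Fos held 13 and 10 UMIs in the mutant libraries and 34 and 27 in the WT libraries, and the mean per cell was 0.733 and 0.530 in the mutant libraries and 2.48 and 1.63 in the WT libraries.

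Barcodes with 500 or more genes detected that were left out for a mitochondrial share above 10% did not follow one direction for Fos. Of the 675, 67, 448 and 416 barcodes above that share in mutant 1, mutant 2, WT 1 and WT 2, they were 183, 37, 69 and 125. Per 1000000 non-mitochondrial UMIs, the 183 and 37 such barcodes of mutant 1 and mutant 2 had 62.9 and 273 Fos UMIs, against 186 and 115 for the 69 and 125 of WT 1 and WT 2. The kept T cells had 85.6 and 58.7 in the mutant libraries and 271 and 187 in the WT libraries. The 37 barcodes of mutant 2 held 107 Fos UMIs, more than the 97 of its 183 kept T cells. The left-out barcodes were not grouped by cell type, so they may hold cells other than T cells. With mitochondrial shares of up to 20% allowed, the Fos difference in all kept T cells was -1.67 (edgeR adjusted p = 8.0e-05).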
